A study of Homo sapiens with 6 samples.

Results

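Transcript levels of 9 genes of the NRF2 antioxidant system were examined in HK2 cells, an established line of human proximal tubular epithelium, among the 38100 genes of the deposited tables. The genes were chosen by symbol from known biology, with earlier results of these data known. They comprise the transcription factor gene NFE2L2, its repressor gene KEAP1 and 7 genes for antioxidant or detoxifying enzymes (HMOX1, NQO1, GCLC, GCLM, TXNRD1, SRXN1 and SOD2). All 9 were listed in both tables and all 9 passed the filter on low counts. Poly(A) RNA was sequenced from 6 samples, 3 per group. The AdCtrl group received a control adenovirus, the AdSirt4 group an adenovirus that drives overexpression of the sirtuin gene SIRT4, and both groups were then stimulated with TGF-β1, the cytokine that drives fibrotic responses in the kidney. The comparison addresses which transcripts differ when SIRT4 is overexpressed in stimulated tubular cells. No sample without TGF-β1 or without virus was analysed here, so effects that both groups share are not visible. The genotype is given as wild type in both groups. All sample titles name HK2, although the number in the cell line label changes from sample to sample. The study describes its in vitro replicates as technical, so p-values may measure only the spread between preparations of one culture.

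NRF2, the protein of NFE2L2, is held in the cytosol by KEAP1, an adaptor of a ubiquitin ligase that marks it for degradation. Oxidants and electrophiles modify cysteines of KEAP1, NRF2 then accumulates in the nucleus, pairs with small MAF proteins and binds antioxidant response elements near its target genes. Its targets make and recycle glutathione and thioredoxin, detoxify quinones, degrade heme and supply NADPH. Because much of this control acts on protein stability, the NFE2L2 transcript does not by itself report NRF2 activity. SOD2, the manganese superoxide dismutase of mitochondria, belongs to the same antioxidant defence but is also a well-known target of NF-κB.

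The libraries held 53677241, 42102861 and 50190728 assigned counts in AdCtrl replicates 1 to 3 and 41537353, 85684748 and 80040053 in AdSirt4 replicates 1 to 3. Counts were scaled to library size as CPM. Without AdSirt4 replicate 1, each remaining AdSirt4 library was deeper than every AdCtrl library, so depth and group cannot be told apart there. SIRT4 itself was at 0.573, 1.11 and 1.11 CPM in AdCtrl replicates 1 to 3 and at 51.2, 92.7 and 84.0 CPM in AdSirt4 replicates 1 to 3, with a log2 fold change of 6.36 ± 0.357 (SE) and an adjusted p of 0.00801 in edgeR's quasi-likelihood test with Benjamini-Hochberg adjustment. Leaving out AdCtrl replicate 1, 2 or 3 in turn gave an adjusted p of 0.0559, 0.203 or 0.186 with a log2 fold change of 6.10 or more. The counts do not separate viral from endogenous SIRT4 transcripts. AdSirt4 replicate 1 stood apart from the other libraries, since across the genes tested its departure from the mean of the other libraries of its group fell with transcript length (Spearman's rho = -0.58, against -0.18 to 0.17 in the AdCtrl libraries). The same measure was 0.50 and 0.51 in AdSirt4 replicates 2 and 3, whose reference mean includes replicate 1. Against the mean of the AdCtrl libraries, rho was -0.52, 0.12 and 0.24 for AdSirt4 replicates 1, 2 and 3. Fold changes are therefore given with and without replicate 1, while levels and their likeness are given over all 6 samples. Of 7 epithelial markers, 6 were at 1 CPM or more in every sample, CDH1 being under it, with a summed level of 1542 to 1591 CPM in AdCtrl and 1466 to 2059 CPM in AdSirt4. Of 7 proximal tubule markers, LRP2, CUBN, SLC34A1, AQP1 and ANPEP were under 1 CPM in every sample. GGT1 was at 210.2 to 247.2 CPM and SLC5A2 at 1.40 to 2.13 CPM over all samples. The 7 markers summed to 229.0 to 250.4 CPM in AdCtrl and 212.5 to 222.5 CPM in AdSirt4, nearly all from GGT1. Fibroblast markers summed to 40.0 to 45.1 CPM over all samples, nearly all from COL1A1 and LUM, and leukocyte markers to 34.4 to 49.5 CPM, mostly from CD68 at 31.6 to 46.5 CPM, with CD3E at 0 and PTPRC at or near 0. Podocyte markers summed to 4.11 to 6.40 CPM and endothelial markers to 0.411 to 0.742 CPM. The part of these marker levels in the results was not tested.

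The antioxidant response element was searched as its core letters TGACNNNGC, on both strands, in RefSeq promoters (build GRCh38.p14) that reach from 250 bases before to 50 bases after a start site. The table held 14 promoters for 8 of the 9 genes, with no entry for HMOX1. Of all 35116 promoters, 4687 (13.3%) held at least 1 match, and 4 of the 14 promoters, from GCLM, KEAP1 and TXNRD1, did so. NFE2L2, NQO1, GCLC, SRXN1 and SOD2 had no match in these windows. The matching windows are shown because NRF2 binds such elements, and capitals mark the match. Each is written 5′ to 3′ on the strand of the match, with 10 bases on each side.
GCLM, chr1:93909446-93909474, plus strand, centred 30 bases before the start: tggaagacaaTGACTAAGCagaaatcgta
KEAP1, chr19:10502784-10502812, plus strand, centred 27 bases before the start: caggtcaccaTGACTAAGCagagccgggc
KEAP1, chr19:10502807-10502835, minus strand, centred 50 bases before the start: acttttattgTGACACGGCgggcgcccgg
TXNRD1, chr12:104215670-104215698, plus strand, centred 95 bases before the start: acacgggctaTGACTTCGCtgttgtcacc
TXNRD1, chr12:104215761-104215789, minus strand, centred 4 bases before the start: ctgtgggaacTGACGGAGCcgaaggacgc
TXNRD1, second start site, chr12:104286920-104286948, minus strand, centred 98 bases before the start: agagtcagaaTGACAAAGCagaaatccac
GCLM and KEAP1 shared the letters TGACTAAGC, in both on the strand opposite to the gene. The KEAP1 distances are from a start site at chr19:10502771, which lies inside the KEAP1 span that ends at 10503356. A match describes the sequence only, and a promoter without one merely lacks these letters in this window.

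With all 6 samples, edgeR's quasi-likelihood test called none of the 9 genes at the adjusted threshold of 0.05 and 2 of all 17720 genes (0.0113%). With the replicate block it likewise called none of the 9, against 0.00564% of all genes. At an unadjusted p under 0.05 there was 1 gene, SOD2, against 7.93% of all genes tested, and DESeq2 called the same 1 of 9 after adjustment, against 1.20% of all genes. Voom with sample quality weights, which gives less weight to variable libraries, called SOD2 and NQO1, against 9.51% of all genes. The fold change lay above 0 in 7 genes and below 0 in NQO1 and GCLM, with a median of 0.09 on the log2 scale against 0.02 over all genes tested. Of all 17720 genes, 9459 lay above 0. Without AdSirt4 replicate 1, SOD2 passed upwards and NQO1 downwards, 2 of 9 genes, where 6.71% of 18287 genes passed, and the median over the 9 was 0.04 against -0.0028 over all genes. The CPM of the groups did not overlap for NFE2L2, GCLC and SOD2, all higher in AdSirt4, against 9.66% of all genes in that direction, and for no gene in the other direction. In bulk samples, a difference in the share of cells that express a gene and one in the RNA per cell cannot be told apart.

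**Figure D1:**
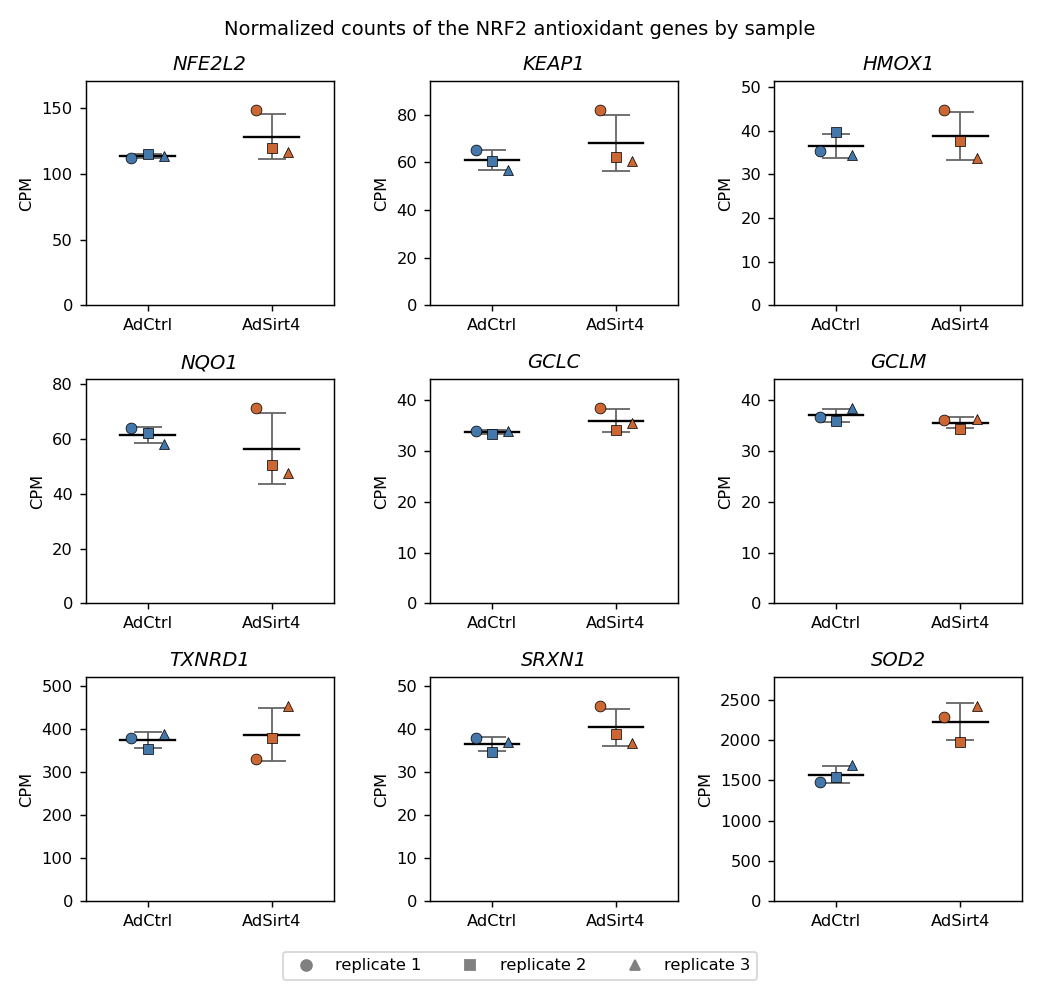
Library-scaled counts (CPM, vertical axes from 0) of the 9 genes in each AdCtrl and AdSirt4 sample, with a symbol for each replicate number, a bar at the group mean and whiskers of 1 SD (n = 3 per group). AdSirt4 replicate 1 was the highest of the 6 libraries for 6 genes and the lowest for TXNRD1, and the SOD2 groups did not overlap.

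SOD2 showed the largest difference of the 9 genes. The enzyme turns superoxide in the mitochondrial matrix into hydrogen peroxide, and its gene (Entrez 6648, chr6:159669069-159762281) was the most abundant of the list. SOD2 was at 1480.5, 1540.0 and 1691 CPM in AdCtrl replicates 1 to 3 and at 2283, 1971 and 2418 CPM in AdSirt4 replicates 1 to 3. All 3 AdSirt4 values exceeded the highest AdCtrl value. The means were 1571 ± 108.7 and 2224 ± 229.1 CPM (SD, n = 3), a 1.42-fold difference. The log2 fold change was 0.50 ± 0.138 (SE, 95% interval 0.18 to 0.83) and the adjusted p from edgeR 0.498, so SOD2 did not pass the test over all genes. The exact two-sided permutation test of the 6 values gave p = 0.1, the smallest that 3 samples against 3 allow.

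The SOD2 estimate depended little on AdSirt4 replicate 1, whereas its call did. Without that library the log2 fold change was 0.48 ± 0.0850 (SE, 95% interval 0.29 to 0.67) with an adjusted p of 0.0139 in edgeR. With all samples, DESeq2 gave 0.50 with an adjusted p of 0.00967, and voom with sample quality weights gave 0.42 with an adjusted p of 0.0126. With the replicate number as a block, edgeR gave 0.50 with an adjusted p of 0.669. Over 19 alternative fits, the SOD2 log2 fold change ran from 0.22 to 0.59 and lay above 0 in 19 of 19, and the adjusted p ran from 0.00967 to 0.971, under 0.05 in 4 of them.

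The lowest estimates came from the second deposited table, which holds length-scaled values (FPKM). There SOD2 was at 294.0, 400.7 and 400.6 FPKM in AdCtrl and at 439.8, 356.6 and 480.3 FPKM in AdSirt4. AdSirt4 replicate 2 lay below 2 of the 3 AdCtrl samples, so the groups overlapped, with means of 365.1 ± 61.5 and 425.5 ± 63.1 FPKM (SD, n = 3). On the log2(FPKM + 1) scale the SOD2 difference was 0.22, with an adjusted p of 0.819 in limma. The ratio of CPM to FPKM is the transcript length that the tables imply for a gene in a library. For SOD2 this length was 5.07, 3.88 and 4.32 kb in AdCtrl and 4.87, 5.56 and 5.11 kb in AdSirt4. Its longest value was 1.43 times the shortest, a ratio that 472 of 15894 genes (2.97%) reached or passed, while the other 8 genes lay between 1.04 and 1.09 and the median of all genes was 1.05. The implied SOD2 length thus differed among samples of the same group. Its means were 4.42 ± 0.603 kb in AdCtrl and 5.18 ± 0.351 kb in AdSirt4 (SD, n = 3), with overlapping groups. Its part in the SOD2 difference was not tested. For NFE2L2 the implied length was 3.00 to 3.10 kb in AdCtrl and 2.85 to 2.89 kb in AdSirt4. Its longest value was 1.09 times the shortest, a ratio that 3158 of 15894 genes (19.9%) reached or passed. How often implied lengths separate the groups over all genes was not tested. The RefSeq span of SOD2 also holds WTAP, a subunit of the m6A RNA methyltransferase complex, and meets ACAT2, a cytosolic thiolase. WTAP was at 118.9 to 123.1 CPM in AdCtrl and 133.8 to 201.3 CPM in AdSirt4, and ACAT2 at 96.2 to 99.9 and 88.1 to 153.2 CPM. Whether reads were counted by strand is not given in the sources used here, so reads from overlapping genes may not be separated.

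**Figure D2:**
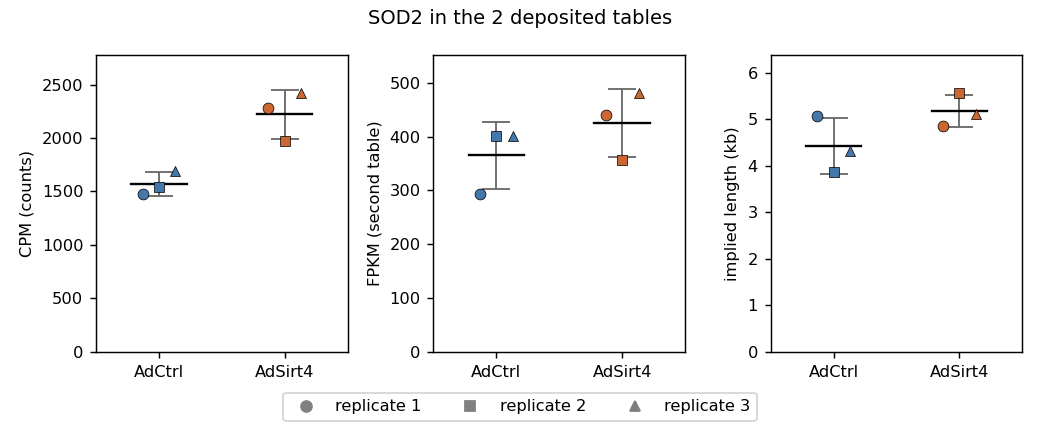
SOD2 in the 2 deposited tables: CPM from the count table, FPKM from the second table, and the transcript length in kb that the 2 tables imply, for each sample with the group mean and whiskers of 1 SD (n = 3 per group). The groups are separate in CPM, from 1480.5 to 1691 against 1971 to 2418, and overlap in FPKM.

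NQO1 was the one member that passed the test downwards when AdSirt4 replicate 1 was left out. It encodes a quinone reductase that uses NADPH or NADH to take quinones to hydroquinones and is a widely used readout of NRF2 (Entrez 1728, chr16:69709401-69726560). NQO1 was at 64.0, 61.9 and 58.2 CPM in AdCtrl and at 71.1, 50.5 and 47.4 CPM in AdSirt4. AdSirt4 replicate 1 was the highest of all 6 libraries and AdSirt4 replicates 2 and 3 were the lowest, so the groups overlapped. With all samples the means were 61.4 ± 2.97 and 56.3 ± 12.9 CPM (SD, n = 3), with a log2 fold change of -0.12 ± 0.163 (SE, 95% interval -0.51 to 0.26) and an adjusted p of 0.823 in edgeR. Without AdSirt4 replicate 1 the mean of the other 2 AdSirt4 samples was 49.0 CPM, or 0.798 of the AdCtrl mean. The log2 fold change was then -0.33 ± 0.0598 (SE, 95% interval -0.46 to -0.20) with an adjusted p of 0.0118 in edgeR. The NQO1 estimate lay below 0 in 19 of 19 alternative fits, from -0.33 to -0.01, and its adjusted p was under 0.05 in 3 of them and reached 0.971. Those 3 were the fit without AdSirt4 replicate 1, that fit with the length trend removed, and voom with sample quality weights.

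NFE2L2 (Entrez 4780, chr2:177230303-177264727), the gene of NRF2 itself, was at 111.9, 115.3 and 113.2 CPM in AdCtrl and at 148.3, 120.0 and 116.7 CPM in AdSirt4. The groups did not overlap in CPM or in FPKM, yet AdSirt4 replicates 2 and 3 lay close to the control range. The NFE2L2 log2 fold change was 0.18 ± 0.117 (SE, 95% interval -0.10 to 0.45) with an adjusted p of 0.732 in edgeR, and 0.06 (95% interval -0.06 to 0.17) with an adjusted p of 0.537 without AdSirt4 replicate 1. KEAP1 (Entrez 9817, chr19:10486125-10503356), which senses electrophiles and holds NRF2 back, was at 65.2, 60.7 and 56.7 CPM in AdCtrl and at 81.8, 62.3 and 60.5 CPM in AdSirt4. Its AdSirt4 replicate 1 was again the highest library, while replicates 2 and 3 fell inside the control range. The KEAP1 log2 fold change was 0.16 ± 0.139 (SE, 95% interval -0.16 to 0.49, adjusted p 0.766, edgeR) with all samples and 0.0078 (95% interval -0.13 to 0.15, adjusted p 0.956, edgeR) without that library.

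GCLC and GCLM encode the catalytic and the modifier subunit of glutamate-cysteine ligase, which carries out the rate-limiting step of glutathione synthesis. GCLC (Entrez 2729, chr6:53497341-53545101) was at 34.0, 33.3 and 34.0 CPM in AdCtrl and at 38.4, 34.1 and 35.5 CPM in AdSirt4. Its groups did not overlap in CPM but did so in FPKM, and the log2 fold change was 0.09 ± 0.0910 (SE, 95% interval -0.12 to 0.31, adjusted p 0.783, edgeR), and 0.04 without AdSirt4 replicate 1. GCLM (Entrez 2730, chr1:93885199-93909430) was at 36.8, 36.0 and 38.4 CPM in AdCtrl and at 36.1, 34.3 and 36.3 CPM in AdSirt4, with overlapping groups. The GCLM log2 fold change was -0.06 ± 0.0868 (SE, 95% interval -0.26 to 0.15, adjusted p 0.841, edgeR), and -0.07 without that library. These 2 subunit genes had the narrowest intervals of the list, and for both the interval left out a change of 0.50 or more in either direction.

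HMOX1 (Entrez 3162, chr22:35381096-35394207), which encodes the inducible heme oxygenase, was at 35.3, 39.6 and 34.5 CPM in AdCtrl and at 44.6, 37.7 and 33.8 CPM in AdSirt4. The AdSirt4 group held both the highest and the lowest sample. The HMOX1 log2 fold change was 0.09 ± 0.129 (SE, 95% interval -0.22 to 0.39, adjusted p 0.845, edgeR) and turned to -0.03 without AdSirt4 replicate 1. TXNRD1 (Entrez 7296, chr12:104215779-104350307) encodes the cytosolic thioredoxin reductase, a selenoprotein, and was at 379.7, 354.8 and 389.8 CPM in AdCtrl and at 329.5, 378.8 and 453.2 CPM in AdSirt4. It was the one gene with its lowest library in AdSirt4 replicate 1, and its groups overlapped. The TXNRD1 log2 fold change was 0.05 ± 0.140 (SE, 95% interval -0.28 to 0.38, adjusted p 0.914, edgeR), and 0.15 (95% interval -0.02 to 0.31, adjusted p 0.253, edgeR) without that library. SRXN1 (Entrez 140809, chr20:646615-653200), whose product sulfiredoxin restores overoxidised peroxiredoxins, was at 37.9, 34.8 and 37.0 CPM in AdCtrl and at 45.3, 39.0 and 36.9 CPM in AdSirt4. The SRXN1 groups overlapped, with a log2 fold change of 0.14 ± 0.109 (SE, 95% interval -0.11 to 0.40, adjusted p 0.749, edgeR), and 0.05 without AdSirt4 replicate 1.

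**Figure D3:**
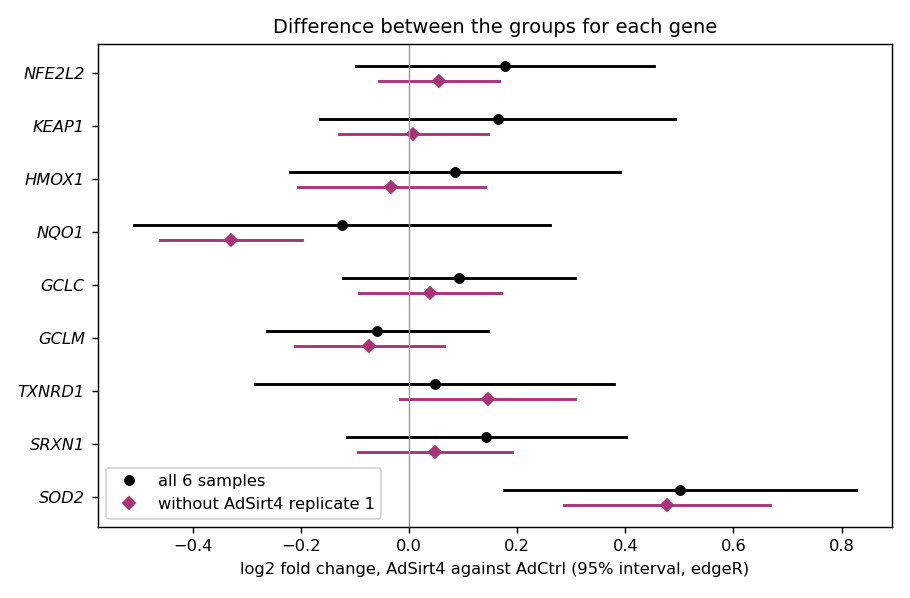
Log2 fold change of AdSirt4 against AdCtrl for each gene with its 95% interval from edgeR, with all 6 samples (black circles) and without AdSirt4 replicate 1 (purple diamonds). With all samples only the SOD2 interval, 0.18 to 0.83, lies clear of 0, and without that library the NQO1 interval, -0.46 to -0.20, does so as well.

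AdSirt4 replicate 1 differed from the mean of AdSirt4 replicates 2 and 3 by 0.54 on the log2 CPM scale in NQO1, 0.41 in KEAP1, 0.33 in NFE2L2, 0.32 in HMOX1 and 0.26 in SRXN1. These 5 genes have implied lengths of 1.78 to 2.94 kb. The longer GCLC, SOD2 and GCLM, at 4.32 to 5.47 kb, differed by 0.14, 0.06 and 0.03, and TXNRD1, at 4.21 kb, by -0.33. Over all genes tested the median of this difference ran from 0.72 in the shortest length bin to -0.95 in the longest. Among the 9 genes, the 5 shorter ones thus had higher signed differences than the longer ones. In size, the TXNRD1 difference exceeded those of HMOX1 and SRXN1. NQO1, KEAP1, SOD2 and GCLM lay above the upper quartile of their length bins, and TXNRD1 below the lower quartile of its own. The part of length in the values of the members was not tested. After removal of the trend from all libraries, edgeR gave SOD2 a log2 difference of 0.55 (adjusted p 0.125) and NQO1 one of -0.17 (adjusted p 0.526). The other 7 genes then lay between -0.0034 for HMOX1 and 0.14 for NFE2L2, and none of the 9 passed the adjusted threshold.

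**Figure D4:**
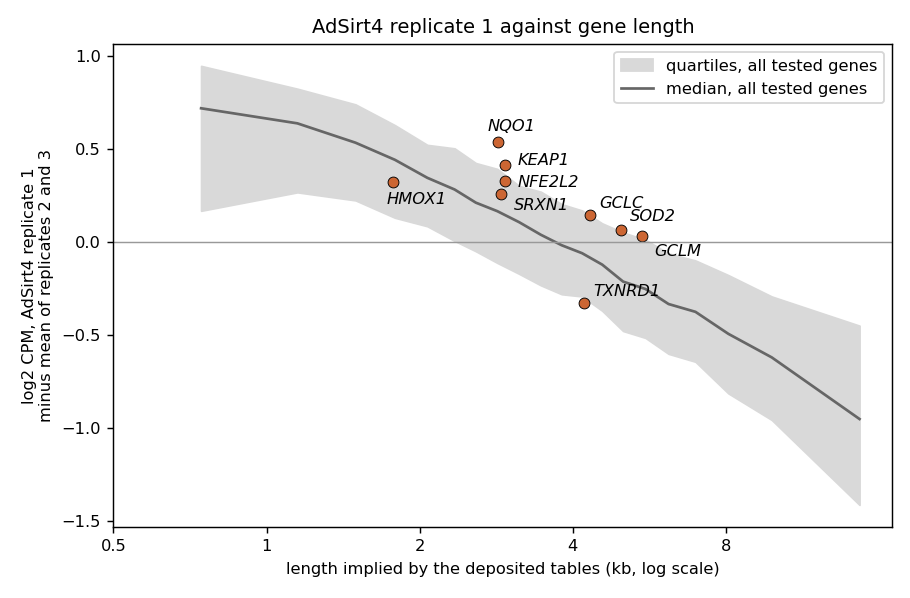
Log2 CPM of AdSirt4 replicate 1 minus the mean of AdSirt4 replicates 2 and 3 (vertical axis) against the transcript length implied by the deposited tables in kb (horizontal axis, log scale), for the 9 genes (points) and for all genes tested (line: median, band: quartiles, by length bin). The median falls from 0.72 to -0.95 with length, and NQO1, at 0.54, lies highest among the 9.

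On the length-scaled FPKM of the AdCtrl group, the level was 365.1 ± 61.5 FPKM (SD, n = 3) for SOD2, 89.8 ± 7.27 for TXNRD1 and 37.8 ± 0.772 for NFE2L2. NQO1, KEAP1 and HMOX1 followed at 21.7 ± 0.731, 20.9 ± 1.17 and 20.7 ± 1.02 FPKM (SD, n = 3). SRXN1 was at 12.8 ± 0.862, GCLC at 7.89 ± 0.333 and GCLM at 6.84 ± 0.404 FPKM (SD, n = 3). Sample ranges of neighbours overlapped for NQO1 with KEAP1 and for KEAP1 with HMOX1, in both groups, and for no other neighbours in this order. In AdSirt4 the means were 19.3 ± 3.35 FPKM for NQO1, 22.8 ± 2.77 for KEAP1 and 21.4 ± 1.97 for HMOX1 (SD, n = 3), so the order of these 3 was not settled by their spread. The modifier subunit gene GCLM was lower than the catalytic subunit gene GCLC in every sample on this scale, at 6.09 to 7.27 against 7.55 to 8.38 FPKM.

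As a description of likeness over the 6 libraries, log2 CPM of NFE2L2 followed GCLC most closely (Pearson's r = 0.92), KEAP1 and SRXN1 followed NFE2L2 (r = 0.91 for each) and so did HMOX1 (r = 0.85). NQO1 was most like HMOX1 (r = 0.67) and SOD2 most like GCLC (r = 0.75). GCLM and TXNRD1 had no close partner, with their highest values at r = 0.25 with NQO1 and SOD2. HMOX1 and TXNRD1 ran in opposite directions (r = -0.88). The points share their libraries, and AdSirt4 replicate 1 with its length trend is 1 of the 6.

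The comparison was widened to 83 other genes of the pathway in 8 lists, of which 78 passed the filter on low counts. GPX2, AKR1B10, AKR1C2, NOX4 and DUOX2 did not. With all samples, edgeR called none of the 78 at the adjusted threshold, and 4 were higher (MAFF, MAFK, SQSTM1 and AKR1B1) and 4 lower (among them SESN2, SESN3 and CAT) at an unadjusted p under 0.05, against 4.43% and 3.50% of all genes. DESeq2 called 2 of them after adjustment, MAFF and MAFK, against 1.20% of all genes. Without AdSirt4 replicate 1, the same 4 passed upwards and 9 of 79 passed downwards (among them SESN2, CAT, GLRX, CBR1, PTGR1, GSTA4, TKT and IDH1), against 3.37% and 3.34% of all genes. The median log2 fold change of these genes was 0.07 with all samples and -0.13 without that library, against 0.02 and -0.0028 over all genes. CPM of the groups did not overlap for 7 genes that were higher and 9 that were lower, against 9.66% and 9.77% of all genes.

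**Figure D5:**
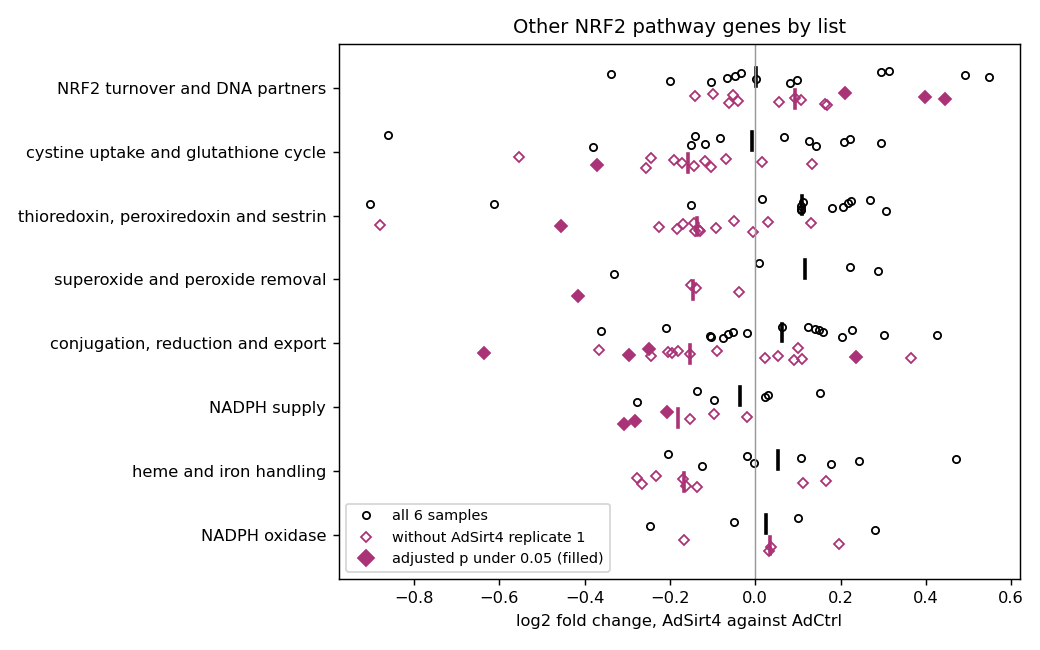
Log2 fold change of AdSirt4 against AdCtrl (edgeR) for the 78 other pathway genes that passed the count filter, by list, with all 6 samples (black circles) and without AdSirt4 replicate 1 (purple diamonds, filled at an adjusted p under 0.05). Each point is 1 gene and each bar the median of its list, and all 6 NADPH supply genes lie below 0 without that library. Of all 18287 genes tested there, 9256 lie below 0.

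Among the regulators and DNA partners of NRF2, 2 of the 3 small MAF genes were higher in every AdSirt4 sample. In this direction CPM of the groups did not overlap for 9.66% of all genes tested. Both genes were named because they had the smallest p of their list. MAFF, a small MAF protein that pairs with NRF2 or with its competitor BACH1 on DNA, was at 42.4, 40.6 and 47.8 CPM in AdCtrl and at 72.1, 57.3 and 61.7 CPM in AdSirt4. MAFK, of the same family, was at 41.3, 35.2 and 42.6 CPM in AdCtrl and at 62.6, 53.0 and 52.2 CPM in AdSirt4. For both genes the lowest AdSirt4 value exceeded the highest AdCtrl value. MAFG, the remaining small MAF gene, named after its values were seen, had overlapping groups and a log2 fold change of -0.05 (adjusted p 0.922, edgeR), and 0.09 without AdSirt4 replicate 1. The MAFF log2 fold change was 0.55 ± 0.121 (SE, adjusted p 0.494, edgeR) with all samples and 0.44 with an adjusted p of 0.00717 without AdSirt4 replicate 1. The MAFK log2 fold change was 0.49 ± 0.120 (SE, adjusted p 0.494, edgeR) with all samples and 0.40 with an adjusted p of 0.0138 without it. SQSTM1, which encodes the autophagy receptor p62 that binds KEAP1 and was named here after its values were seen, was at 353.1 to 385.5 CPM in AdCtrl and 418.8 to 522.6 CPM in AdSirt4. Its log2 fold change was 0.31 ± 0.123 (SE, adjusted p 0.612, edgeR), and 0.21 with an adjusted p of 0.0480 without AdSirt4 replicate 1. In this list 7 of 13 genes lay above 0 with all samples, with a median of 0.0014 on the log2 scale, against 9459 of all 17720 genes.

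In the list on cystine uptake and the glutathione cycle, SLC7A11, the cystine transporter subunit that feeds glutathione synthesis, was at 27.1, 24.5 and 38.4 CPM in AdCtrl and at 8.19, 18.0 and 23.1 CPM in AdSirt4. The SLC7A11 groups did not overlap, but both were widely spread. Its log2 fold change was -0.86 ± 0.365 (SE, adjusted p 0.628, edgeR) with all samples and -0.55 with an adjusted p of 0.245 without AdSirt4 replicate 1 in edgeR. That library had the lowest SLC7A11 value and the implied length was 10.9 kb. With the length trend removed from all libraries, the SLC7A11 estimate was -0.79 (adjusted p 0.208, edgeR). With the replicate block the p was 0.0105 and the adjusted p 0.667 in edgeR. GLRX2, the mitochondrial glutaredoxin, had a log2 fold change of 0.29 ± 0.152 (SE, adjusted p 0.691, edgeR), and 0.13 without AdSirt4 replicate 1. GLRX, the cytosolic glutaredoxin, named after its values were seen, was at 18.5 to 21.2 CPM in AdCtrl and at 24.3, 16.3 and 14.6 CPM in AdSirt4. Without AdSirt4 replicate 1 it passed downwards, at -0.37 with an adjusted p of 0.0269 in edgeR, and its adjusted p was under 0.05 in 3 of 19 alternative fits. Here 11 of 13 genes lay below 0 without that library, against 6 of 12 with it. Over all genes, 9256 of 18287 lay below 0 without it and 8261 of 17720 with it.

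SESN2, a sestrin induced by stress that restrains mTORC1 and aids peroxiredoxin recovery, was at 77.1, 78.7 and 86.4 CPM in AdCtrl and at 40.2, 56.8 and 61.4 CPM in AdSirt4. All 3 AdSirt4 values were below the lowest AdCtrl value. The SESN2 log2 fold change was -0.61 ± 0.164 (SE, adjusted p 0.494, edgeR) with all samples and -0.46 with an adjusted p of 0.00318 without AdSirt4 replicate 1. SESN3 was far less abundant, at 1.06 ± 0.0276 CPM in AdCtrl and 0.564 ± 0.110 CPM in AdSirt4 (SD, n = 3). Its log2 fold change was -0.90 ± 0.238 (SE, adjusted p 0.494, edgeR) with all samples and -0.88 with an adjusted p of 0.0802 without that library. The other genes of the list encode the third sestrin SESN1, thioredoxins, the thioredoxin-binding protein TXNIP, further reductases and peroxiredoxins. Over the whole list 11 of 14 genes lay above 0 with all samples and 2 of 14 without AdSirt4 replicate 1. Over all genes, 9459 of 17720 and 9031 of 18287 did so. TXN, TXN2 and PRDX1 to PRDX6 had implied lengths of 0.837 to 1.93 kb, and the part of length in these counts was not tested.

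Among the 4 other genes for superoxide and peroxide removal, CAT, which encodes the peroxisomal enzyme catalase that breaks down hydrogen peroxide, was at 32.1, 28.6 and 26.5 CPM in AdCtrl and at 25.7, 22.5 and 21.2 CPM in AdSirt4. The groups did not overlap, although AdSirt4 replicate 1 lay close to AdCtrl replicate 3. The CAT log2 fold change was -0.33 ± 0.120 (SE, adjusted p 0.602, edgeR) with all samples and -0.42 with an adjusted p of 0.0194 without AdSirt4 replicate 1. CCS, the copper chaperone of SOD1, had a log2 fold change of 0.29 ± 0.234 (SE, adjusted p 0.761, edgeR) that turned to -0.04 without that library.

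Among the 6 NADPH supply genes, TKT, the transketolase of the pentose phosphate pathway, had a log2 fold change of -0.14 (adjusted p 0.753, edgeR) with all samples and -0.21 (adjusted p 0.0382) without AdSirt4 replicate 1. IDH1, the cytosolic NADP-dependent isocitrate dehydrogenase, named after its values were seen, passed downwards without that library at -0.28 with an adjusted p of 0.0213 in edgeR. All 6 genes of the NADPH supply list lay below 0 in that comparison, with a median of -0.18 on the log2 scale, and 3 of the 6 with all samples. Over all genes, 9256 of 18287 lay below 0 in that comparison and 8261 of 17720 with all samples.

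Of the 17 conjugation, reduction and export genes tested, AKR1B1, an aldo-keto reductase, was at 982.1 ± 36.8 CPM in AdCtrl and 1319.7 ± 285.3 CPM in AdSirt4 (SD, n = 3). Its log2 fold change was 0.43 ± 0.172 (SE, adjusted p 0.616, edgeR) with all samples and 0.24 with an adjusted p of 0.0492 without AdSirt4 replicate 1. GSTA4, a glutathione transferase for lipid peroxidation aldehydes, was at 7.26 to 8.03 CPM in AdCtrl and at 8.06, 4.74 and 5.08 CPM in AdSirt4. Like NQO1, it had its highest library in AdSirt4 replicate 1 and its lowest in the other 2 AdSirt4 samples. The GSTA4 log2 fold change was -0.36 (adjusted p 0.717, edgeR) with all samples and -0.64 (adjusted p 0.00974) without that library. The carbonyl reductase gene CBR1 and the prostaglandin reductase gene PTGR1, named after their values were seen, passed downwards there too, at -0.30 (adjusted p 0.0223, edgeR) and -0.25 (adjusted p 0.0306).

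In the heme and iron list and the NADPH oxidase list, edgeR called no gene with all samples or when AdSirt4 replicate 1 alone was left out. SLC40A1, the iron exporter ferroportin, had a log2 fold change of -0.20 ± 0.0985 (SE, adjusted p 0.678, edgeR), and -0.23 (adjusted p 0.109) without that library. FTH1, the ferritin heavy chain, was at 3696, 3639.9 and 3569 CPM in AdCtrl and at 6933, 4055 and 4128 CPM in AdSirt4. Its groups did not overlap, and AdSirt4 replicate 1 was far above the rest. The FTH1 log2 fold change was 0.47 ± 0.233 (SE, adjusted p 0.678, edgeR) with all samples and 0.17 (adjusted p 0.0705) without that library. It passed in 1 of 19 alternative fits, the one without that library and with the length trend removed (adjusted p 0.0116, edgeR), and near-identical pseudogene copies make its count uncertain. In the NADPH oxidase list, CYBA had a log2 fold change of 0.28 (adjusted p 0.741, edgeR), and 0.03 without AdSirt4 replicate 1. CYBB, at 0.103 to 0.431 CPM over the 6 samples, had one of -0.25 (adjusted p 0.883, edgeR), and 0.04 without it.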

How the data were processed

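Poly(A) RNA of 6 HK2 samples was sequenced. The submitters' processing notes name fastp 0.21.0, HISAT2 2.1.0, StringTie 2.1.5, DESeq2 1.30.1 and build hg38, and the annotation is not given in the sources used here. The authors deposited raw counts per gene and a second table of length-scaled values, read here as FPKM because the ratio to the counts gives a nearly constant transcript length per gene. Of 38100 genes, 9873 had no count. The 9 genes and the pathway lists were chosen with earlier results of these data known.

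Counts were tested with edgeR 4.0.16 (R 4.3.3) over all genes passing filterByExpr (minimum count 10), with TMM normalisation, the robust quasi-likelihood test and Benjamini-Hochberg adjustment at 0.05. CPM are counts scaled to the TMM-adjusted library size. All 9 genes, SIRT4 and, from each pathway list, the 2 genes with the smallest p were to be named, with any list gene past the threshold. A gene that this rule names is not reported here. Other names are marked in the text as chosen after their values were seen. Permutation tests were exact and two-sided. Alternatives were DESeq2 1.42.0, RLE scaling, 2 other count filters, a replicate block, removal of the length trend (lowess span 0.3), voom with sample quality weights, limma 3.58.1 on log2(FPKM + 1) or log2(FPKM + 0.1), and leaving out each sample. The fit that both removed the trend and left out AdSirt4 replicate 1 was added after seeing the data. Deviations of samples with the same number in the labels correlated at 0.178, 0.159 and 0.176 across genes, against -0.188 to 0.030 for other pairs. Deviations within a group sum to 0, so these values are not independent. The numbers were used as pairs only in the fits with the replicate block, and all other fits left them out. Several of the fits were also run on simulated counts with known changes, with and without a length trend in AdSirt4 replicate 1. That simulation drew independent counts with the same dispersion for every gene, so it does not show how the tests behave on these libraries. Tables were made with Python 3.11.15. Total counts of 41537353 to 85684748 per sample gave the 9 genes at least 1405 counts in every sample.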

Additional observations from a re-analysis of the deposited data

How the results depend on the processing

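The numbers of calls depended on the test and on 1 library. Over all genes, edgeR called 2 with all samples, 5 with every gene of at least 1 count, 4 with at least 10 counts in every sample, 1 with the replicate block, 12 with the length trend removed and 6 with that and the block. DESeq2 called 212 and voom with sample quality weights 1685, while limma called 0 on log2(FPKM + 1), 0 with the block, 1 on log2(FPKM + 0.1) and 5 after a filter on mean FPKM (1 or more). At an unadjusted p under 0.05, limma on log2(FPKM + 1) had 1643 genes. Leaving out 1 sample gave 0 to 1227, with 0 without each AdCtrl sample and 1227 without AdSirt4 replicate 1, and 1387 with the length trend removed as well. Of the 9 genes, DESeq2 called 1, voom 2, and the fits without 1 sample 0 to 2. The fit without AdSirt4 replicate 1 and with the length trend removed called 2. Fits that removed the trend with all samples kept called 0. Of the other pathway genes, the same fits called 2, 12, 0 to 13, 13 and 0, in this order. The fit with the block called 0 in both lists.

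For SIRT4, limma on log2(FPKM + 1) gave 4.88 with an adjusted p of 0.0847, and 4.88 with the replicate block with an adjusted p of 0.150. In edgeR it was at 6.10 to 6.59 when 1 sample was left out, with adjusted p of 0.0559, 0.203 and 0.186 without AdCtrl replicate 1, 2 or 3. Small estimates changed sign. HMOX1 was at -0.0034 with the trend removed, -0.0032 with that and the block, and -0.033 to 0.17 with 1 sample left out. GCLM was at 0.0031 with the trend removed. With 1 sample left out, TXNRD1 ran from -0.081 to 0.15, CCS from -0.037 to 0.45 and CYBB from -0.90 to 0.058. The causes were not tested.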
